A study of Capra hircus with 12 samples.

Results

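The 4 libraries of the middle glucose dose were set against both other doses of an infusion series in the lactating goat mammary gland, which held 12 libraries in all. The libraries were chosen by their treatment labels alone. For each gene, the mean of the middle-dose group was compared with the mean of the low-dose group (4 libraries) and the high-dose group (4 libraries), each of these weighted equally. A gene that is far above or far below both neighbours in this contrast has a dose response that turns at the middle dose. The mean of 2 groups can also be left behind on 1 side only. The step from the low dose and the step from the high dose are therefore given beside many results, though not all. A difference given without its steps may lie on 1 side only.

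The study infused glucose into the mammary gland of dairy goats (Capra hircus, all female and in lactation) with each gland given the low, the middle or the high dose, took a biopsy of the gland and sequenced its RNA. All 3 groups received glucose, and no gland without infusion was analysed here, so "higher" and "lower" are always between doses. The sources used here give neither the numeric doses nor the duration of infusion or the age of the goats. Whether each of the 4 libraries of a group was a different goat is not stated in the labels. The p-values then measure only the spread among libraries, and that spread may be technical.

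The secretory cells of the lactating gland draw glucose from blood through the transporter SLC2A1 and convert much of it to lactose, which is made in the Golgi by the galactosyltransferase B4GALT1 together with the whey protein LALBA. Glucose also feeds glycolysis and the pentose phosphate pathway, and ruminants build milk fatty acids mostly from acetate rather than from glucose. Glucose inside a cell is sensed by transcription factors of the MondoA and MLXIPL (ChREBP) type, whose known targets include TXNIP, ARRDC4 and KLF10.

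Over the 15810 genes shared by all tables, libraries held 9555072 to 12716883 read counts. Middle-dose replicate 3 stood apart from the other 3 middle-dose libraries. The 8 milk protein genes found took 52.0%, 57.7%, 3.44% and 58.9% of the counts in middle-dose replicates 1 to 4. They took 2.18% to 13.7% at the low dose and 7.48% to 42.1% at the high dose (the 95% Wilson intervals of these shares, which cover counting error only, were at most 0.0312 percentage points to each side). Replicates 1, 2 and 4 of the middle dose were therefore above all 8 libraries of the other doses, and replicate 3 was within the low-dose range. Levels are given in CPM (read counts scaled to a fixed library total) after scaling by TMM, a method that aligns the bulk of genes between libraries. The median log2 difference over all genes was -0.03 with it and -0.71 by library size alone, so every direction below is relative to the bulk of genes. Of 49 gene lists with a tested member, 3 had a median that turned under library size alone once that shift was taken off: pentose phosphate genes, fatty acid oxidation genes and skeletal muscle markers. The luminal and myoepithelial marker genes of the gland were present in all 12 libraries, with summed levels of 2329 to 4129 CPM and 1915 to 3288 CPM.

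No gene passed an adjusted p of 0.05 in edgeR's quasi-likelihood test of the 12 libraries with Benjamini-Hochberg adjustment (0% of 13624 genes tested). The smallest adjusted p was 0.0634, and 75 genes shared it. At an unadjusted p under 0.05 there were 2989 genes (21.9%), of which 1649 (12.1%) were higher and 1340 (9.84%) lower at the middle dose. Counts of list members at that p, below, are to be read against these shares of all genes. At a looser adjusted p of 0.1 there were 569 genes (4.18%), 363 higher (2.66%) and 206 lower (1.51%).

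The count depended on middle-dose replicate 3. Without it, 2170 of 13797 genes passed in edgeR (15.7%), 1136 higher (8.23%) and 1034 lower (7.49%), whereas leaving out any other library gave between 0 and 10 genes. The 10 came without low-dose replicate 2 (0.0725%), with 4 higher (0.029%) and 6 lower (0.0435%). Of the other tools, DESeq2 called 1050 genes with all 12 libraries (7.71%), 633 higher (4.65%) and 417 lower (3.06%). The limma voom fit with quality weights, which gave middle-dose replicate 3 a weight of 0.337, called 3601 (26.4%), 1945 higher (14.3%) and 1656 lower (12.2%). Of the DESeq2 calls 903, and of the voom calls 2042, were also called by edgeR without replicate 3. Replicate 3 was singled out by its values in these same data. Adjusted p-values without it can therefore understate the spread of the middle dose, here and below, and are given as a description.

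Most genes had their fitted middle-dose mean outside the other 2. It was the highest of the 3 in 4711 genes (34.6%) and the lowest in 5438 (39.9%). The means went steadily up with dose in 1750 (12.8%) and steadily down in 1725 (12.7%). With 3 groups of equal size, most genes would have the middle-dose mean outside the other 2 even without a dose effect. These shares therefore describe the order of the means only. Among the 2989 genes at an unadjusted p under 0.05, the middle dose was highest in 1648 and lowest in 1337. That p comes from the contrast of the middle dose with the mean of the others, so this outcome was nearly fixed in advance. Both steps taken singly, from low and from high, had an unadjusted p under 0.05 and the same sign in 557 genes higher at the middle dose (4.09%) and 448 genes lower (3.29%), and 0 genes passed the adjusted threshold for both steps.

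In 283 genes (2.08%) all 4 middle-dose libraries, replicate 3 included, lay beyond all 8 others: above them in 133 (0.976%) and below them in 150 (1.1%). By library size alone the split was 4 above and 164 below. The other 3 middle-dose libraries lay above all 8 in 1076 genes, and replicate 3 joined them in 133 of these (12.4%). They lay below all 8 in 1095 genes, and replicate 3 joined them in 150 (13.7%). The genes shared by all 4 libraries are described first, from the 15 in each direction with the smallest p among them. Since p and the separation of the libraries chose these 30 genes, their values are a description. By library size alone, with no allowance for its shift, 25 of the 30 kept their direction. In that setting all 4 middle-dose libraries still lay beyond the 8 others in 5 of the 30, so the separation depended on the scaling. All 30 kept their direction without any 1 library and within the 4 libraries that list the larger set of genes. The separation that chose the genes fixes both outcomes, or nearly so, in advance. All 30 also passed an adjusted p of 0.05 in edgeR without middle-dose replicate 3, in DESeq2 and in voom. These fits reuse the libraries that chose the genes, so passing them adds no support. With the log2 milk protein share of each library as a covariate, the differences of the 30 genes were 0.735 to 1.13 times as large.

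The lower gene with the smallest p was F3, which encodes tissue factor, the trigger of blood clotting (chromosome 3, 46576700 to 46586475 in the coordinates of the tables, with no build named). Its level was 54.4, 36.1, 43.1 and 98.9 CPM in low-dose replicates 1 to 4, 25.8, 24.6, 19.96 and 22.2 CPM at the middle dose and 59.5, 98.3, 92.4 and 112 CPM at the high dose. The middle-dose libraries sat within a narrow band, and replicate 3 was the lowest of them. The log2 difference was -1.65 ± 0.27 (SE, n = 4 against 8, edgeR adjusted p = 0.0634), a level 3.13-fold lower, and -1.58 ± 0.31 without replicate 3 (edgeR adjusted p = 0.011). The step from low was -1.33 and the step from high -1.97, so the 2 neighbours were both above it.

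CCL2, a chemokine that attracts monocytes, had the largest difference of the 30. It was at 17.0, 8.74, 13.1 and 27.9 CPM at the low dose, 1.94, 1.91, 6.95 and 4.48 CPM at the middle dose and 21.2, 14.6, 39.3 and 41.8 CPM at the high dose. Replicate 3 was the highest middle-dose library but still below every other dose. The log2 difference was -2.49 ± 0.48 (edgeR adjusted p = 0.0634), and -3.02 ± 0.52 without replicate 3 (adjusted p = 0.0075). PLAUR, the receptor of urokinase, was at 3.64 to 6.14 CPM at the middle dose, 6.22 to 12.5 CPM at the low dose and 9.80 to 13.5 CPM at the high dose. PLAUR, which is not among the 30 but is a member of the injury-type list, had groups that nearly touched, with middle-dose replicate 3 just under low-dose replicate 2, and a log2 difference of -0.95 ± 0.23. SDC4, a heparan sulfate proteoglycan of the cell surface, was at 50.7 to 78.2 CPM at the middle dose against 85.6 to 228 CPM at the low and 102 to 161 CPM at the high dose. In a biopsy, fewer cells of a type and less RNA per cell cannot be told apart, here or for any gene below.

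KLF10, a zinc finger repressor induced by TGF-beta and by glucose sensing, was at 108, 42.9, 104 and 106 CPM at the low dose. It was at 40.3, 32.4, 32.0 and 16.3 CPM at the middle dose and 101, 114, 76.6 and 83.0 CPM at the high dose. Low-dose replicate 2 came close to the middle-dose group, and the other 7 libraries were well above it. The log2 difference was -1.60 ± 0.29 (edgeR adjusted p = 0.0634), with equal steps from low (-1.57) and from high (-1.63). It was -1.63 without replicate 3 and -1.67 with the milk share as a covariate.

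**Figure D1:**
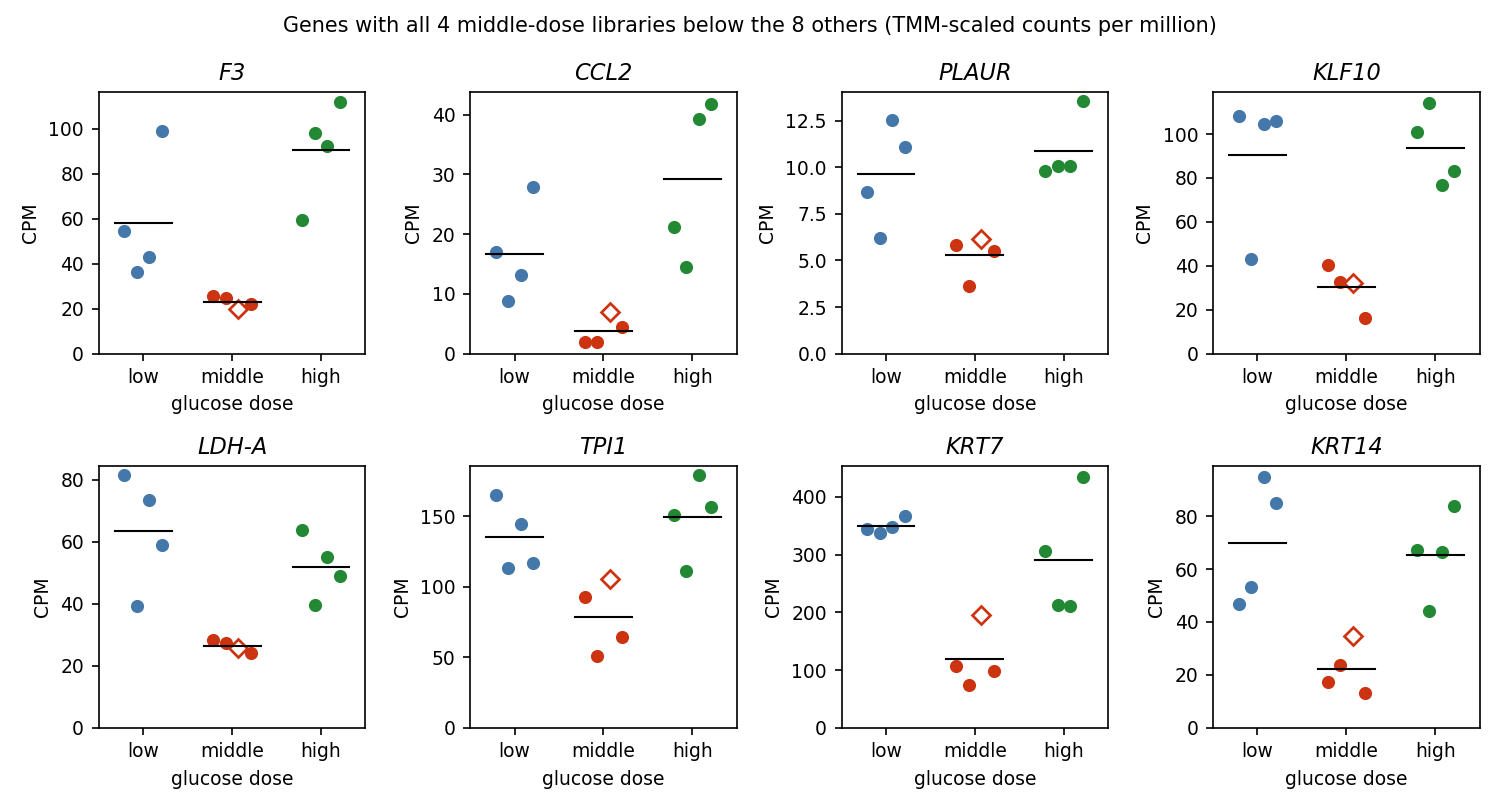
Level in each library (CPM, linear axis from 0) of 8 genes whose 4 middle-dose libraries lie below the 8 others, by glucose dose. Points are libraries in replicate order, the open diamond is middle-dose replicate 3 and the bar is the mean of the group. The diamond sits among the other middle-dose libraries for F3, KLF10 and LDH-A and nearer to the other doses for TPI1, KRT7 and KRT14.

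Keratins made up a second set. KRT14, a keratin of basal and myoepithelial cells, was at 46.8, 53.1, 94.7 and 85.0 CPM at the low dose, 17.4, 23.6, 34.6 and 13.04 CPM at the middle dose and 67.3, 44.2, 66.3 and 84.0 CPM at the high dose (log2 difference -1.60 ± 0.30). KRT7, a keratin of luminal cells, was at 337 to 366 CPM at the low dose, 106, 74.7, 196 and 99.0 CPM at the middle dose and 211 to 435 CPM at the high dose (log2 difference -1.42 ± 0.28). In both genes replicate 3 was the highest middle-dose library, so the difference was larger without it, -1.91 for KRT14 and -1.77 for KRT7 (edgeR adjusted p = 0.0056 and 0.0034). KRT5 and KRT18, their partners of the same layers, were also lower at -1.26 and -1.03, but their groups overlapped through replicate 3, which had 635 CPM of KRT5 against 170 to 234 CPM in the other 3 middle-dose libraries. Keratin genes resemble each other in sequence, and the sources used here do not say how reads that fit several genes were counted.

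KRT14, KRT5, KRT7 and KRT18 were named by rules that use p, and differed by more than the medians of their marker lists. Of 10 myoepithelial markers 2 were lower at an unadjusted p under 0.05 (all genes: 9.84%), KRT14 and KRT5. The keratin KRT17, on the same list, did not reach that p. The median of the list was -0.04, close to the -0.03 of all genes. Of 9 luminal markers 8 were lower and 3 of these had an unadjusted p under 0.05 (KRT7, KRT18 and ELF3), with a median of -0.34, which was -0.59 without middle-dose replicate 1 and -0.21 without low-dose replicate 3. The summed luminal markers were at 2329 to 2995 CPM at the middle dose, 2639 to 3954 CPM at the low and 2373 to 4129 CPM at the high dose, so the groups overlapped. The skin keratinocyte markers IVL, DSG1 and SBSN were too low to test, at a summed 0.204 to 2.73 CPM.

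The other lower genes among the 30 were TAGLN2 (-0.89), an actin-binding protein, PPP1R18 (-1.07), which targets a phosphatase to actin, GMIP (-0.81), TUBB6 (-0.92), a beta tubulin, and FAM49B (-0.68), a regulator of Rac. RARRES1 (-1.59), a retinoid-responsive gene, CHD1L (-0.80), a chromatin remodeller, LDH-A (-1.12) and IDH3A (-0.93) complete the list.

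LDH-A, the subunit of lactate dehydrogenase that favours lactate formation, lies on chromosome 29 (25221578 to 25231220, tables' coordinates). Its level was 81.4, 39.4, 73.5 and 58.8 CPM at the low dose, 28.5, 27.4, 25.7 and 24.0 CPM at the middle dose and 63.8, 39.7, 55.1 and 49.0 CPM at the high dose. The 4 middle-dose libraries differed little among themselves, replicate 3 was in their midst, and each was under the lowest other library. The log2 difference was -1.12 ± 0.20 (edgeR adjusted p = 0.0634), that is 2.17-fold lower, and -1.10 without replicate 3 (adjusted p = 0.013). The steps were -1.26 from low and -0.97 from high.

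Glycolysis genes were lower at the middle dose more often than higher. Of 21 genes on the list 14 were lower and 7 higher, and of the lower ones 10 had an unadjusted p under 0.05 (all genes: 9.84%), and 1 was higher at that p (all genes: 12.1%). The median was -0.39, with steps of -0.39 from low and -0.36 from high. All members named in this paragraph come from that list, and those beyond LDH-A, GAPDH, TPI1 and PGAM1 were named after their values had been seen. From the top of the pathway, GPI, the isomerase of glucose 6-phosphate, differed by -0.39, and the platelet-type phosphofructokinase PFKP by -0.48, against -0.15 for PFKL and -0.09 for PFKM. The aldolase ALDOA was at 0.04 ± 0.16. The enzymes on the list from triose phosphate down to pyruvate were all lower: TPI1 by -0.85 ± 0.21, GAPDH by -0.78 ± 0.18, PGK1 by -0.43, PGAM1 by -0.83 ± 0.25, ENO1 by -0.61 and PKM by -0.55. The lactate exporter SLC16A3 was at -1.24 ± 0.39, while LDHB, the subunit found mostly in oxidative tissue, was at -0.04 ± 0.27. PFKFB4, which sets the level of fructose 2,6-bisphosphate, was the 1 gene higher at that p, at 1.52 ± 0.55.

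In TPI1 all 4 middle-dose libraries (92.6, 51.2, 105 and 64.6 CPM) were below the lowest of the others (111 CPM). GAPDH, often used to normalise other genes, was at 385 to 538 CPM at the low dose, 227, 222, 319 and 203 CPM at the middle dose and 309 to 499 CPM at the high dose. Here replicate 3 crossed into the high-dose range. Without replicate 3, 5 glycolysis genes were lower in edgeR at an adjusted p of 0.05 (LDH-A, GAPDH, TPI1, PGAM1 and ENO1). At that threshold 2 were higher (PFKFB4 and PFKFB2), and the median was -0.55. Over all genes in that fit, 7.49% were lower and 8.23% higher. Averaged over the list, middle-dose replicates 1, 2 and 4 were 0.34, 0.30 and 0.37 log2 units under the mean of the other doses, and replicate 3 was 0.01 under it. The median was -0.31 with the milk share as a covariate, -0.23 without middle-dose replicate 2 and -0.18 in the 8 libraries of one gene set.

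Other genes of glucose use did not follow as a group. SLC2A1 was at 76.5, 76.1, 18.2 and 75.6 CPM at the middle dose, 15.3 to 43.8 CPM at the low dose and 32.8 to 91.7 CPM at the high dose, with a log2 difference of 0.51 ± 0.39 (edgeR adjusted p = 0.45). Its step from low was 1.14 and its step from high -0.13, so it did not turn at the middle dose. HK2, an inducible hexokinase, was at 6.94, 4.16, 23.6 and 5.30 CPM at the middle dose against 5.18 to 26.8 CPM and 11.999 to 60.7 CPM (-0.93 ± 0.61, adjusted p = 0.377), and HK1, the common hexokinase, at -0.48 ± 0.16. B4GALT1 was at 979, 1207, 616 and 965 CPM at the middle dose, 254 to 478 CPM at the low dose and 404 to 974 CPM at the high dose. Its difference of 0.86 ± 0.25 came from the low dose (step 1.42) much more than from the high dose (step 0.29).

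The glucose-sensing list of 9 genes was split. KLF10, above, and ARRDC4, an arrestin-like adaptor, were lower. ARRDC4 was at 47.8 to 81.6 CPM at the low dose, 36.8, 33.5, 47.0 and 32.2 CPM at the middle dose and 45.8 to 77.0 CPM at the high dose (-0.79 ± 0.19). TXNIP, the arrestin-like inhibitor of thioredoxin and of glucose uptake, was at 1691, 1465, 815 and 1651 CPM at the middle dose, 611 to 1570 CPM at the low dose and 441 to 1827 CPM at the high dose, so the groups overlapped throughout (0.37 ± 0.37, edgeR adjusted p = 0.568). MLX, the partner protein of the 2 sensors, was higher by 0.51 ± 0.16. KLF10 and ARRDC4 passed in edgeR without replicate 3 (adjusted p = 0.013 and 0.015) and so did MLX (0.022), but TXNIP did not (0.33).

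In the citric acid cycle, 14 of 27 genes were higher and 13 lower, with a median of 0.01. Its steps were of opposite sign, 0.33 from low and -0.15 from high. At an unadjusted p under 0.05, 6 genes were higher and 2 lower (all genes: 12.1% and 9.84%). The list held 1 non-overlapping gene below and 1 above (all genes: 1.1% and 0.976%). IDH3A, the catalytic subunit of the NAD-dependent isocitrate dehydrogenase, was at 20.8 to 28.8 CPM at the low dose, 9.998, 12.3, 17.1 and 10.6 CPM at the middle dose and 19.1 to 27.1 CPM at the high dose (-0.93 ± 0.18). SDHB, the iron-sulfur subunit of succinate dehydrogenase, was at 42.2 to 62.6 CPM, 76.8, 77.7, 66.9 and 74.2 CPM and 44.0 to 59.0 CPM in the same order (0.52 ± 0.12). All 4 middle-dose libraries were thus under the others for the one and over them for the other. The NADP-dependent mitochondrial enzyme IDH2 was at -0.68 ± 0.18, mostly by its step from low (-1.07, and -0.29 from high), and the cytosolic aconitase ACO1 at 1.45 ± 0.39.

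The higher genes of the 30 had varied roles. FPGS, which adds glutamate tails to folates and so keeps them in the cell, had the smallest p (chromosome 11, 96953911 to 96966688, tables' coordinates). It was at 26.4, 35.2, 29.9 and 21.2 CPM at the low dose, 54.7, 60.9, 48.2 and 64.8 CPM at the middle dose and 28.8, 35.4, 25.2 and 28.5 CPM at the high dose. Every middle-dose library, replicate 3 included, was well above the other 8. The log2 difference was 0.99 ± 0.15 (edgeR adjusted p = 0.0634), a level 1.98-fold higher, with steps of 1.02 and 0.96, and 1.06 ± 0.16 without replicate 3 (adjusted p = 0.0043).

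DDR2, a receptor tyrosine kinase for collagen, was at 32.2 to 40.1 CPM at the low dose, 71.0, 80.5, 45.9 and 75.8 CPM at the middle dose and 29.2 to 41.6 CPM at the high dose (0.94 ± 0.15). GRB10, an adaptor that restrains signalling from the insulin and IGF receptors, was at 40.8 to 49.4 CPM, 75.0, 87.4, 54.5 and 71.9 CPM and 41.2 to 50.7 CPM (0.67 ± 0.13). KCNK5, a potassium leak channel, was at 6.29 to 25.1 CPM, 58.3, 43.5, 27.6 and 58.5 CPM and 8.98 to 19.3 CPM (1.76 ± 0.32). In these genes replicate 3 was the middle-dose library nearest to the other doses, as it was in 14 of the 15 higher genes and 9 of the 15 lower ones.

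The remaining higher genes were REC8 (1.22), a cohesin subunit known from meiosis, PPP1R26 (1.40), a regulator of protein phosphatase 1, SDPR (1.01), a coat protein of caveolae, EPB41L4B (1.00), a FERM domain protein, and ADRBK1 (0.71), a kinase of G protein-coupled receptors. With smaller differences came ZSWIM8 (0.77) and UBXN7 (0.68), both adaptors of protein degradation, ASCC1 (0.79), VRK3 (0.54), C20H5orf28 (1.07) and C3H1orf43 (0.69). REC8, UBXN7, ASCC1, C3H1orf43 and, among the lower genes, IDH3A overlap another gene in the tables. The sources used here do not say whether counting used strand, so reads of such a pair cannot be told apart.

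**Figure D2:**
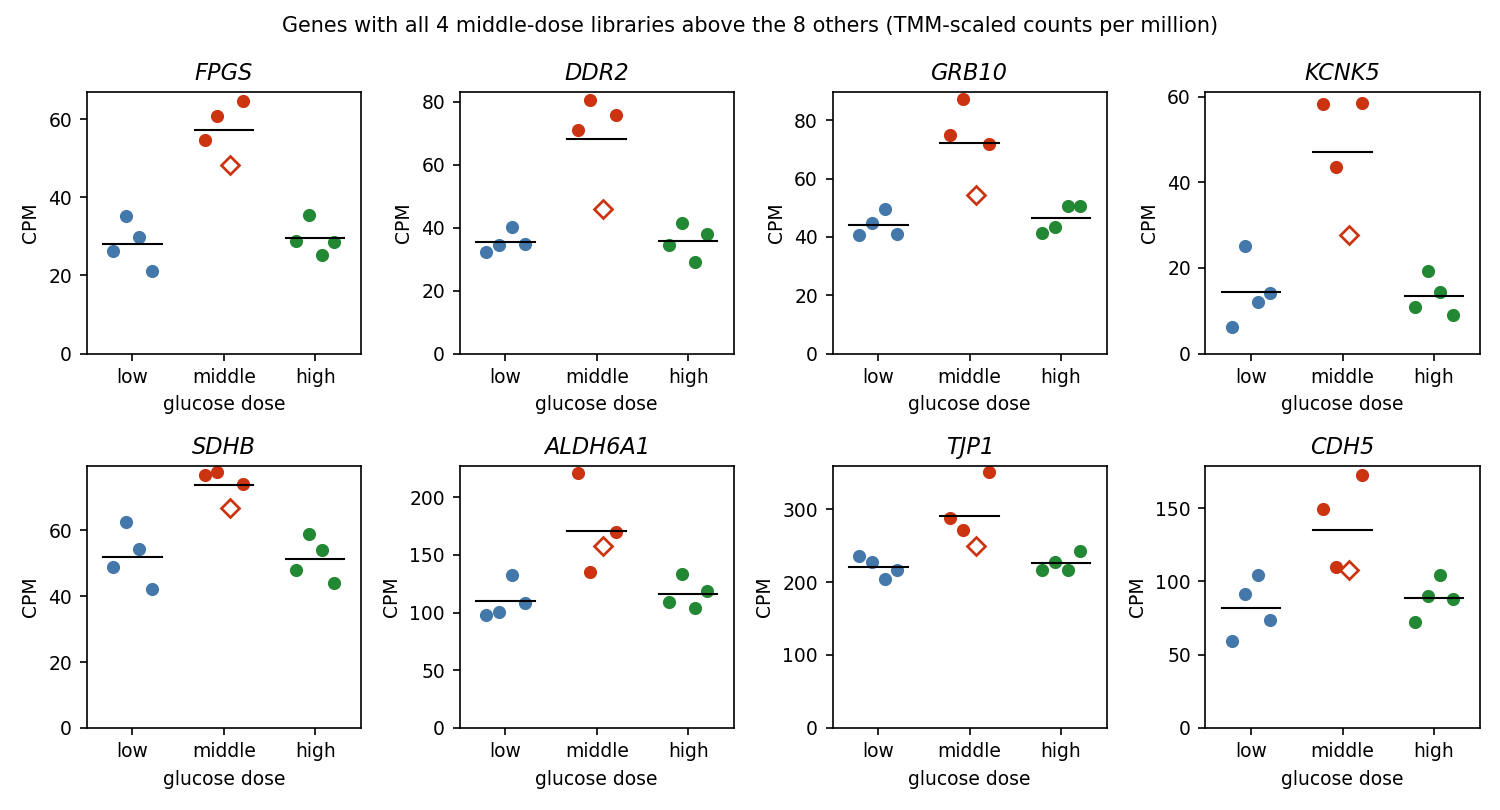
Level in each library (CPM, linear axis from 0) of 8 genes whose 4 middle-dose libraries lie above the 8 others, by glucose dose. Points are libraries in replicate order, the open diamond is middle-dose replicate 3 and the bar is the mean of the group. The diamond lies above every library of the other doses in each panel, by a wide margin in FPGS and a narrow one in DDR2, GRB10, TJP1 and CDH5.

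Genes of branched-chain amino acid breakdown were higher at the middle dose more often than lower, and their mean was higher in replicate 3 too. Of 24 genes 19 were higher, 9 of them at an unadjusted p under 0.05 (all genes: 12.1%). At that p 1 was lower (all genes: 9.84%). The median was 0.23, with steps of 0.36 and 0.19. PPM1K, the phosphatase that activates the branched-chain keto acid dehydrogenase, was at 66.7 to 98.6 CPM at the low dose, 308, 321, 117 and 420 CPM at the middle dose and 53.8 to 136 CPM at the high dose (1.81 ± 0.31, edgeR adjusted p = 0.0634). BCKDK, the kinase that switches the same complex off, was higher too, at 0.69 ± 0.16. ALDH6A1, of the valine pathway, did not overlap between groups, with 221, 135, 158 and 170 CPM at the middle dose, 97.6 to 132 CPM at the low and 104 to 133 CPM at the high dose (0.60 ± 0.14). The mean of the list in middle-dose replicates 1 to 4 was 0.23, 0.47, 0.25 and 0.37 log2 units above the mean of the other doses, whose highest library was just above replicate 1.

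The difference of the oxidative phosphorylation genes was similar in size. Of 24 nuclear-encoded subunits 21 were higher, 5 at an unadjusted p under 0.05 (all genes: 12.1%), and 0 were lower at that p (all genes: 9.84%). Their median was 0.28, with steps of 0.41 from low and 0.12 from high. NDUFA6, of complex I, was at 23.4 to 27.7 CPM at the low dose, 37.9, 54.6, 33.8 and 39.1 CPM at the middle dose and 21.8 to 36.4 CPM at the high dose (0.56 ± 0.16). Replicate 3 was 0.26 above the mean of the other doses over this list and replicate 1 was 0.03 above it. The high-dose libraries spread over the same range, up to 0.37.

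Junction genes of the epithelium were higher more often than lower. The cytoplasmic scaffold TJP1 was above all other libraries at the middle dose. It was at 288, 271, 249 and 351 CPM there, 204 to 236 CPM at the low dose and 216 to 243 CPM at the high dose (0.38 ± 0.12). OCLN, the membrane protein occludin, was at 0.76 ± 0.15 and overlapped only through replicate 3 (111 CPM) and high-dose replicate 2 (118 CPM). CLDN1, a claudin that forms the seal itself, was lower at -0.83 ± 0.27. Over the 15 genes of the list, 6 were higher and 1 lower at an unadjusted p under 0.05, with a median of 0.30. The shares of all genes at that p were 12.1% higher and 9.84% lower. Without replicate 3, TJP1 and OCLN passed in edgeR (adjusted p = 0.034 and 0.0084), as did CLDN1 in the other direction (0.042).

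The genes of milk secretion were high in 3 middle-dose libraries and not in replicate 3. The 11 tested milk proteins had a median of 2.27, 7 of them higher and 1 lower at an unadjusted p under 0.05 (all genes: 12.1% and 9.84%). LALBA was at 52751, 53964, 797 and 71259 CPM at the middle dose, 52.7 to 2740 CPM at the low dose and 586 to 27449 CPM at the high dose. The log2 difference was 3.93 ± 1.18 (edgeR adjusted p = 0.111), with a step of 5.54 from low and 2.32 from high, and 4.34 without replicate 3 (adjusted p = 0.023). CSN2, beta-casein, was at 3.08 ± 1.02 with replicate 3 and 3.49 without it (adjusted p = 0.126 and 0.024). The single gene lower was LTF, lactoferrin, at -3.15 ± 1.13, named after its value had been seen.

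The lists of supply to secretion were higher as well, with replicate 3 the lowest middle-dose library over each. Triglyceride assembly and fat globule genes had a median of 1.25 over 18 genes. Of these, 10 were higher and 1 lower at an unadjusted p under 0.05 (all genes: 12.1% and 9.84%). MFGE8, a coat protein of the fat globule, was at 989, 2363, 512 and 1398 CPM at the middle dose, 106 to 309 CPM at the low dose and 241 to 973 CPM at the high dose (1.95 ± 0.42). Replicate 3 was above the low-dose range and within the high-dose range. Fatty acid synthesis and uptake had a median of 0.64 over 24 genes. In it FASN, fatty acid synthase, was at 5733, 15898, 3995 and 9543 CPM at the middle dose, 1347 to 9784 CPM at the high dose and 1352 to 2349 CPM at the low dose (1.49 ± 0.46), with steps of 2.30 from low and 0.67 from high. All 4 middle-dose libraries were above the low dose, and replicates 1, 3 and 4 were under the highest high-dose library. Calcium and phosphate secretion had a median of 0.49 over 16 genes, led by the zinc transporter SLC30A2 (4.27 ± 0.97) and the parathyroid hormone-like PTHRP (2.54 ± 0.63). The steps of that list were 0.83 from low and 0.15 from high. The fit with the milk share as a covariate left out the 8 genes that make up that share. Of the milk protein list, 2 genes higher and 1 lower remained in it, so it gave no value for the caseins or LALBA. In that fit the median of triglyceride assembly was 0.38 and that of calcium and phosphate secretion 0.057. That of fatty acid synthesis was 0.018, with 12 fatty acid genes higher and 12 lower.

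The integrated stress response and serine-asparagine synthesis list was also high in 3 middle-dose libraries. Of it, 18 of 21 genes were higher, 14 at an unadjusted p under 0.05 (all genes: 12.1%), and 0 were lower at that p (all genes: 9.84%). The median was 0.90, with steps of 1.05 from low and 0.76 from high. ATF5, a transcription factor of that response, was at 128, 125, 12.9 and 226 CPM at the middle dose, 11.6 to 16.5 CPM at the low dose and 18.2 to 65.7 CPM at the high dose (2.55 ± 0.52, edgeR adjusted p = 0.0634). PSAT1, of serine synthesis, was at 552, 681, 85.8 and 654 CPM, ASNS, asparagine synthetase, at 96.5, 175, 10.9 and 113 CPM, and MTHFD2, of mitochondrial folate metabolism, at 108, 105, 19.0 and 109 CPM in middle-dose replicates 1 to 4. In ASNS and MTHFD2 replicate 3 was within or under the low-dose range, which ran from 13.8 to 20.1 and from 15.1 to 25.7 CPM. Without replicate 3, 13 genes of the list rose in edgeR at an adjusted p of 0.05 and 0 fell (all genes: 8.23% and 7.49%). With the milk share as a covariate ATF5 was at 1.17, PSAT1 at 1.14, MTHFD2 at 0.70 and ASNS at 0.91, and the median of the list was 0.41.

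Amino acid transporters (median 0.42, 8 of 25 higher and 2 lower at an unadjusted p under 0.05) and aminoacyl-tRNA synthetases (median 0.37, 8 of 20 higher and 0 lower) followed. Over all genes, 12.1% were higher and 9.84% lower at that p. The steps of the transporters were 0.67 from low and 0.27 from high. Those of the synthetases were 0.69 and 0.11, so their difference came mostly from the low dose. SLC7A5, the carrier of large neutral amino acids, was at 256, 349, 18.6 and 350 CPM at the middle dose, 22.4 to 57.2 CPM at the low and 46.1 to 151 CPM at the high dose (1.999 ± 0.56, edgeR adjusted p = 0.098, and 0.004 without replicate 3). Without middle-dose replicate 3 the medians were 0.63 for transporters and 0.56 for synthetases, and without middle-dose replicate 2 that of synthetases was 0.23. With the covariate they were 0.13 and 0.24. Of the synthetases, CARS was at 1.51 and GARS at 1.42. Protein translocation into the endoplasmic reticulum (0.32, 13 of 32 higher and 0 lower) and N-glycan synthesis (0.25, 9 of 25 higher and 1 lower) had steps of 0.63 and 0.50 from low but of 0.05 each from high, so as lists they did not turn at the middle dose. The same held for cholesterol synthesis, at 0.96 from low and 0.08 from high, whose median of 0.52 was 0.22 without middle-dose replicate 2. ER chaperones had steps of opposite sign, 0.28 and -0.39.

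**Figure D3:**
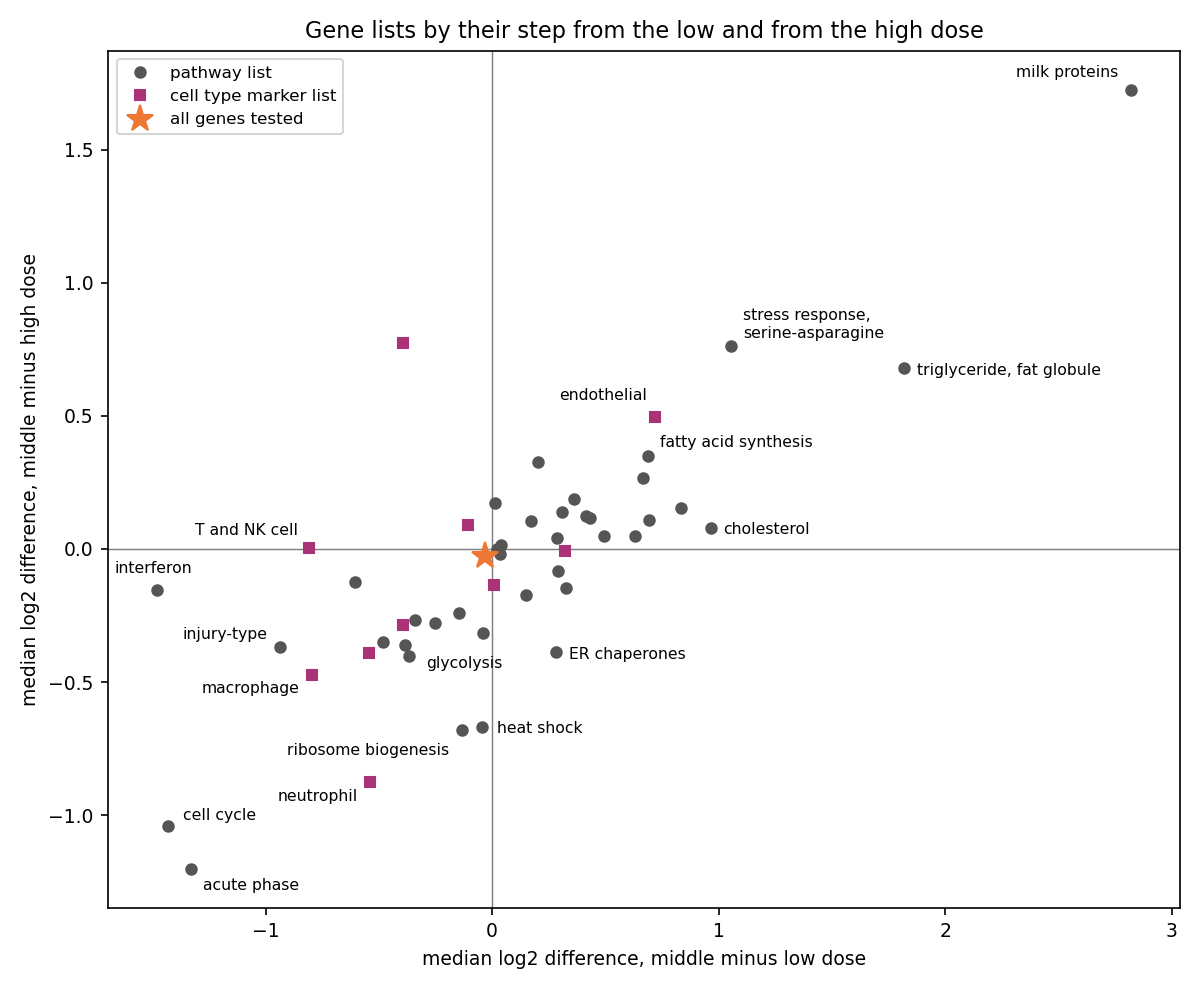
Median log2 difference of each gene list between the middle and the low dose (horizontal axis) and between the middle and the high dose (vertical axis). Circles are 39 pathway lists, squares 10 cell type marker lists and the star all 13624 genes tested. Lists to the upper right and lower left of the origin are above or below both neighbours; interferon, T and NK cell and cholesterol lists lie along the horizontal axis, set apart from the low dose alone.

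Endothelial markers were all higher, the one list of the 10 cell types tested of which every member was. The 11 genes had a median of 0.58, and 9 had an unadjusted p under 0.05 (all genes: 12.1% higher). The steps were 0.72 from low and 0.50 from high. KDR, the main receptor of vascular endothelial growth factor, was at 270, 276, 142 and 370 CPM at the middle dose, 109 to 146 CPM at the low dose and 110 to 201 CPM at the high dose (0.89 ± 0.24). CDH5, the cadherin of endothelial junctions, did not overlap, at 149, 110, 108 and 173 CPM against 59.1 to 104 and 72.2 to 104 CPM (0.66 ± 0.18). The smallest difference was that of VWF, 0.15 ± 0.17, which was lost by library size alone (-0.0041 relative to its shift) and with the milk share as a covariate (-0.085). The summed level of the list was 1413, 1432, 834 and 1674 CPM in the middle-dose libraries, 796 to 1039 CPM at the low dose and 873 to 1138 CPM at the high dose, so 3 of 4 middle-dose libraries were above all others and replicate 3 was among them. Without replicate 3, 9 of the 11 passed in edgeR, all higher (all genes: 8.23% higher). With the milk share as a covariate the median was 0.29, with 9 genes higher and 2 lower. In that fit KDR was at 0.61, CDH5 at 0.53, EMCN and ESAM both at 0.48, TEK at 0.31, PLVAP and TIE1 both at 0.29, PECAM1 at 0.22, ENG at 0.18 and FLT1 at -0.014.

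Macrophage and neutrophil markers were mostly lower. Of 10 macrophage markers 9 were lower, 7 at an unadjusted p under 0.05 (all genes: 9.84%). At that p 0 were higher (all genes: 12.1%). Their median was -0.68, with steps of -0.79 and -0.47. AIF1, a calcium-binding protein of macrophages, was at 34.8 to 52.2 CPM at the low dose, 16.9, 17.9, 30.1 and 18.1 CPM at the middle dose and 23.4 to 37.6 CPM at the high dose (-0.75 ± 0.20, and -0.99 without replicate 3 at an edgeR adjusted p of 0.01). The summed macrophage markers were at 320 to 426 CPM at the middle dose, 325 to 835 CPM at the low and 400 to 616 CPM at the high dose. Neutrophil markers (median -0.66 over 9, 3 lower at an unadjusted p under 0.05, and -1.12 without middle-dose replicate 4) included the calgranulin S100A9, at 0.555, 2.08, 1.10 and 1.22 CPM at the middle dose against 2.03 to 5.34 and 2.19 to 17.5 CPM. T and NK cell markers had a step of -0.81 from low and 0.00 from high, and therefore did not turn. Their median of -0.42 was -0.21 without middle-dose replicate 2. Of 10 B and plasma cell markers 5 were higher and 5 lower, with a median of -0.05, and 0.16 without middle-dose replicate 3.

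The injury and NF-kB lists were below the mean of the other doses in all 4 middle-dose libraries. The immediate early and injury-type list had a median of -0.65 over 29 genes, with steps of -0.94 from low and -0.37 from high. In it 8 genes were lower and 0 higher at an unadjusted p under 0.05 (all genes: 9.84% and 12.1%). F3, CCL2 and PLAUR are 3 of its members. Middle-dose replicates 1 to 4 were 0.41, 1.36, 0.69 and 0.61 log2 units below the mean of the other doses over this list, whose 8 libraries ran from -0.82 to 1.03. NF-kB and inflammation genes had a median of -0.41 over 20 (-0.69 without middle-dose replicate 3 and -0.27 without high-dose replicate 4), 8 lower and 1 higher, and the 4 libraries were 0.23, 0.33, 0.22 and 0.37 below. The steps of the NF-kB list were -0.61 from low and -0.12 from high. NFKB2, a subunit of that factor, was at -0.74 ± 0.19. The medians of both lists were negative, as were those of the macrophage and neutrophil markers. The part of these cells in the result was not tested.

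Acute phase and antimicrobial genes had a median of -1.23 over 14, with 8 lower and 3 higher at an unadjusted p under 0.05. Over all genes, 9.84% were lower and 12.1% higher at that p. As means over the list the middle-dose libraries were at -0.33, 0.03, -1.50 and -0.49 relative to the other doses, which ran from -1.75 to 0.96. CHI3L1, a secreted chitinase-like protein of inflamed tissue, was at 489, 282, 878 and 626 CPM at the low dose, 67.8, 57.1, 206 and 43.2 CPM at the middle dose and 440, 216, 305 and 883 CPM at the high dose (-2.45 ± 0.54, edgeR adjusted p = 0.0709). Replicate 3, at 206 CPM, was just under high-dose replicate 2, and the other 3 were far below. Without replicate 3 the difference was -3.19 (adjusted p = 0.0056). All 21 interferon response genes were lower, with a median of -0.79, but 4 had an unadjusted p under 0.05, and the step from low (-1.48) was much larger than that from high (-0.15). Low-dose replicate 4 had a mean log2 CPM of 6.72 over this list against 4.16 to 4.75 in the other low-dose libraries, and without it the median was -0.28.

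All 27 cell cycle genes were lower at the middle dose, with a median of -1.25 and steps of -1.43 and -1.04. Only 5 of them had an unadjusted p under 0.05 (all genes: 9.84% lower). This was a matter of replicate 3. Over the list, middle-dose replicates 1, 2 and 4 were 2.46 to 2.79 log2 units below the mean of the other doses, and replicate 3 was 0.40 above it. MCM4, of the DNA replication helicase, was at 9.16, 11.1, 29.8 and 9.37 CPM at the middle dose, 22.9 to 47.3 CPM at the low and 11.6 to 57.7 CPM at the high dose (-1.14 ± 0.47). Without replicate 3 the median was -2.61, and 21 of the 27 fell in edgeR at an adjusted p of 0.05 (all genes: 7.49%). With the covariate and all 12 libraries the median was -0.76.

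Of the other growth-related lists, ribosome biogenesis had 27 of 28 genes lower (median -0.42) but by its step from high (-0.68, against -0.14 from low). Heat shock genes had 13 of 14 lower (-0.36), also from high (-0.67, against -0.05). Without high-dose replicate 3 these medians were -0.28 and -0.23. Cytosolic ribosomal proteins had a median of 0.03 over 37 and 0 genes at an unadjusted p under 0.05 in either direction. Genes of involution and apoptosis had a median of -0.32 over 21, with steps of -0.37 and -0.40. Of these genes 5 were lower and 0 higher at an unadjusted p under 0.05 (all genes: 9.84% and 12.1%). Over this list the middle-dose libraries were 0.21, 0.51, 0.35 and 0.47 below the mean of the other doses. The lysosome list had a median of -0.26 over 23, 7 lower and 1 higher, and of -0.16 without middle-dose replicate 4.

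**Figure D4:**
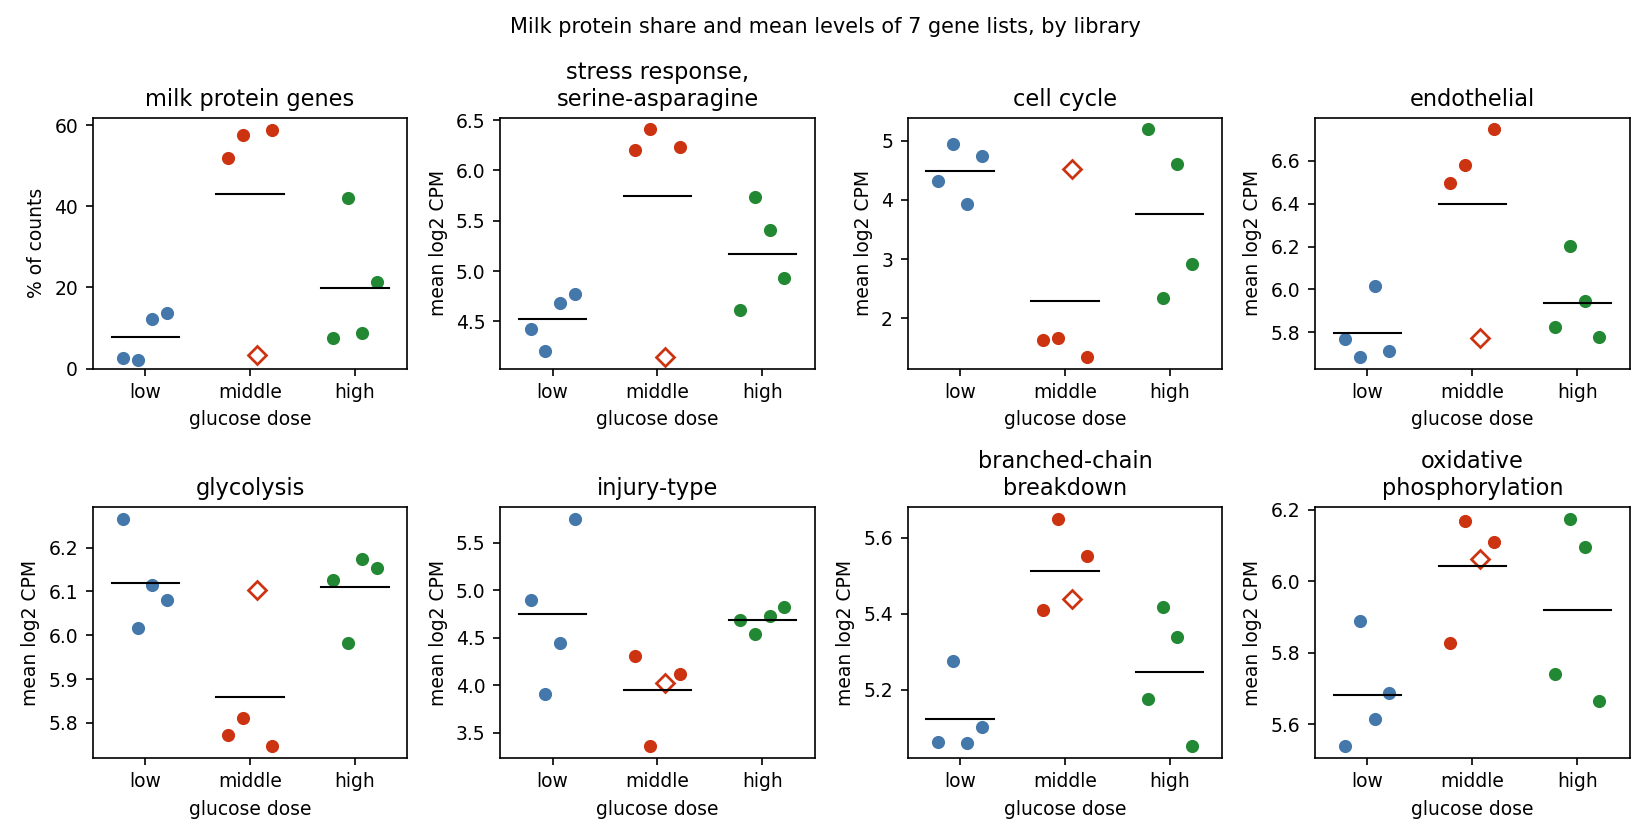
Share of counts in milk protein genes (first panel, percent) and mean log2 CPM of 7 gene lists in each library, by glucose dose. Points are libraries in replicate order, the open diamond is middle-dose replicate 3 and the bar is the mean of the group. The diamond is apart from the other middle-dose libraries for milk protein genes, stress response, cell cycle, endothelial and glycolysis lists, and among them for injury-type, branched-chain and oxidative phosphorylation lists.

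Over no list did the means of all 4 middle-dose libraries lie beyond those of all 8 others. Leaving out 1 library turned the median of 9 of the 49 lists, among them ER chaperones, the citric acid cycle and ribosomal proteins, whose medians lay between -0.16 and 0.19. With the milk share as a covariate 7 lists turned, including cholesterol synthesis (to -0.08), glucose uptake and lactose synthesis (from 0.28 to -0.14) and hypoxia response (from 0.26 to -0.06).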

How the data were processed

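RNA of 12 mammary biopsies was sequenced. The authors deposited a read count per gene for each library; Bowtie 0.12.2 and the build mm8 are named in the submitters' processing notes, although the tables list goat genes, and the goat build is, like the counting tool and strand use, not given in the sources used here. The tables hold 2 gene sets (16030 and 15991 genes, in 4 and 8 libraries), and the 15810 shared genes were used. Of these, 97.3% matched a RefSeq gene of ARS1.2, used for names and, by the commonest chromosome of each sequence, for chromosomes.

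Genes passing filterByExpr (minimum count 10, minimum total 15) were tested in edgeR 4.0.16 (R 4.3.3) with TMM scaling, dose as the factor and the middle dose against the equal mean of the others, adjusted by Benjamini-Hochberg at 0.05. CPM carries no prior count and log2 CPM a prior count of 2. SE is the difference over the root of F. The code was tested on simulated data. Alternatives were RLE, library size alone, no filter, milk genes left out, each library left out, DESeq2 1.42.0, limma 3.58.1 voom and a replicate block. Others were both steps, the gene set as a term or as a restriction, and the milk share as a covariate. The milk protein genes were left out of the fit with that covariate.

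The genes named are the 15 per direction with the smallest p among symbols with a mean log2 CPM of at least 1 whose 4 middle-dose libraries all lay above or all below the 8 others, up to 4 members of each list by p, and 8 genes read in any case. All members of 5 lists were added after their values were seen. The members and lists were chosen with earlier results of these data known. Some genes that this rule names are not reported here.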

Additional observations from a re-analysis of the deposited data

Results flagged for a closer look

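Of 93 sets of 4 libraries examined, 4 held a library far from the other 3 by Dixon's criterion, and chance alone gives about 1 in 20. At the middle dose, the milk protein share of replicate 3 was 3.44% against 52.0% to 58.9%. TAGLN2 was at 109 CPM in the same library against 83.9 to 87.9 CPM. At the low dose, KLF10 was at 42.9 CPM in replicate 2 against 104 to 108 CPM, and GMIP at 43.1 CPM in that replicate against 50.3 to 51.7 CPM. TAGLN2, KLF10 and GMIP are among the 30 genes chosen because all 4 middle-dose libraries lay beyond the 8 others.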

How the results depend on the processing

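The count of genes past the adjusted p of 0.05 was 0 in edgeR with RLE scaling, library size alone, milk protein genes left out, no filter, a replicate block, both steps, the milk share as a covariate and the gene set as a term or a restriction. It ranged from 0 to 2170 when 1 library was left out, with 10 without low replicate 2, 1 without middle replicate 2 and 2170 without middle replicate 3. It was 1050 in DESeq2, 3601 in voom with quality weights and 569 at an adjusted p of 0.1, a threshold chosen after seeing the data. At an unadjusted p under 0.05 there were 2644 genes with the replicate block and 1781 with the covariate. Replicate numbers did not pair the libraries: 4 of 12 same-number pairs had a correlation of deviations above 0.1 (range -0.53 to 0.38), and 1 library correlated best with its own number. Genes whose libraries did not overlap numbered 283, 168 by library size alone and 311 to 2179 with 1 library left out, where fewer libraries have to be separated. Among genes named, ALDOA turned in direction with 1 library left out (-0.0082 to 0.12), for both steps (-0.024) and with the covariate (-0.043). LDHB turned by library size alone once the shift of all genes was taken off (0.13), for both steps (0.090) and with the covariate (0.14). LDHB ranged from -0.29 to 0.059 with 1 library left out. PFKM turned in the same 3 settings (0.19 with that shift taken off, 0.20 and 0.24), and was at 0.37 in the 8 libraries of one gene set. Its range was -0.79 to 0.11 with 1 library left out. With the covariate PFKL was at 0.084, SLC2A1 at -0.33, TXNIP at -0.066, FLT1 at -0.014 and VWF at -0.085. SLC2A1 was at -0.13 for both steps and VWF at -0.0041 by library size alone with that shift taken off. The cause of these turns was not tested. With 4 libraries a dose and a common biological coefficient of variation of 0.363, the spread between libraries, rather than the depth of 9555072 or more counts, set the precision of most genes named.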

Other observations

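Among 274 KEGG pathways with 15 to 300 tested genes, those with the highest median log2 difference included steroid biosynthesis (0.54 over 15 genes, 4 higher and 0 lower at an unadjusted p under 0.05), GPI-anchor biosynthesis (0.29 over 22, 9 higher and 0 lower) and protein export (0.25 over 22, 7 higher and 0 lower). The steps of the GPI-anchor genes were 0.30 from low and 0.24 from high. KEGG oxidative phosphorylation had 82 of 103 genes higher, 23 at that p and 0 lower, with a median of 0.19. The lowest medians belonged to pathways that share antigen presentation genes, among them asthma (-0.71 over 16, 8 lower) and the intestinal IgA network (-0.59 over 33, 14 lower and 2 higher). Antigen presentation genes are near copies of each other, so the counts of single members are uncertain. Over all genes, 12.1% were higher and 9.84% lower at an unadjusted p under 0.05. The pathways were chosen after their medians were seen.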
